A study of Rattus norvegicus with 9 samples.

Results

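Neuroactive ligands and their receptors were followed here in INS-1E cells, an insulin-secreting line derived from a rat insulinoma. The members were the genes whose KEGG annotation in the deposited table names the pathway of neuroactive ligand-receptor interaction and not that of cytokine-cytokine receptor interaction, apart from a fixed list of islet hormones and receptors that were left out by name. Of 20645 genes in the table, 221 carried the annotation, 3 were left out as cytokine pathway genes and 9 by name, which gave 209 members. Those compared between groups were chosen by measured values, a mean of at least 1 FPKM (mapped fragments per unit of gene length, adjusted for library size) over the 9 libraries. This kept 68 of the 209 members, among 12958 genes of the table that passed the same filter.

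The cells were treated for 24 h with fatty acid-free BSA, the carrier of the fatty acid and here the control, with palmitic acid (PA), or with a mixture of PA and cyanidin-3-O-glucoside (C3G), an anthocyanin pigment of dark fruits. Each group had 3 libraries, all from the same cell line, and no group received C3G without PA. The labels do not say whether the replicates came from separate cultures, so the p-values measure only the spread between these samples. The question addressed was which genes PA changes relative to BSA, and which of them differ when C3G is given together with PA.

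Neuroactive ligands are peptides, amines, amino acids, nucleotides and lipids that cells release to act on receptors of their own surface or of their neighbours. The receptors are ligand-gated ion channels, which change membrane potential directly, and G protein-coupled receptors, which raise or lower cyclic AMP and calcium. Beta cells share much of this equipment with neurons: they make GABA and neuropeptides, and acetylcholine, adenine nucleotides, somatostatin, dopamine and many peptides tune their insulin release.

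The libraries held between 45559993 and 66730721 estimated counts, and low counts were often multiples of 4. Over all genes and libraries, the number of values at 4 counts was 2.44 times the average for 3 and 5 counts. All 12 beta-cell markers on the list passed the filter. Their summed level was 49219 to 49923 FPKM in the BSA group, 22337 to 22843 in the PA group and 46783 to 52373 in the PA + C3G group. In the PA group versus the BSA group 10 of the 12 fell, beside 25.2% of all genes. In the PA + C3G group relative to the PA group 11 rose, beside 11.1% of all genes. The part of this shift in the results on receptors and ligands was not tested, and in such bulk samples fewer cells of a type and less RNA per cell cannot be told apart. Those markers of other cell types that were in the table were nearly absent: the summed levels of the acinar, ductal, fibroblast, endothelial and immune lists stayed at or below 0.674 FPKM in every library, and Cela1, Krt19 and Ptprc were listed at 0 in all BSA libraries. These sums cover 2 of 5 acinar, 2 of 3 ductal, 2 of 4 fibroblast, 1 of 3 endothelial and 2 of 3 immune markers, as the others were not in the table. Of the other islet cell markers 3 of 7 were in the table, with Hhex listed at 0 in all BSA and PA libraries and a summed level of 9.55 to 31.9 FPKM in the BSA group, 2.68 to 7.01 in the PA group and 5.37 to 23.1 in the PA + C3G group. The 5 neuron markers, which beta-cell lines also express, summed to 58.5 to 61.5 FPKM in the BSA group, 45.3 to 51.1 in the PA group and 44.2 to 49.3 in the PA + C3G group.

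Most members were close to silent. Of the 141 that were not compared, 82 had a mean under 0.1 FPKM, and 51 were listed at 0 in every library of at least 1 group. The 68 compared members ranged from 1.05 to 305 FPKM, with a median of 4.64 FPKM beside 12.9 FPKM over all compared genes. Only 18 reached 10 FPKM. Just inside the filter lay Tac4 at 1.05, Gabre at 1.07 and P2rx3 at 1.09 FPKM, and just outside it Ghrl at 0.989, Grm2 at 0.984 and Glrb at 0.852 FPKM. The filter passed 9 members with a mean under 1 FPKM in at least 1 group and kept out 3 with a group mean of at least 1 FPKM, so the counts over the 68 describe the members that passed and not all members.

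**Figure D1:**
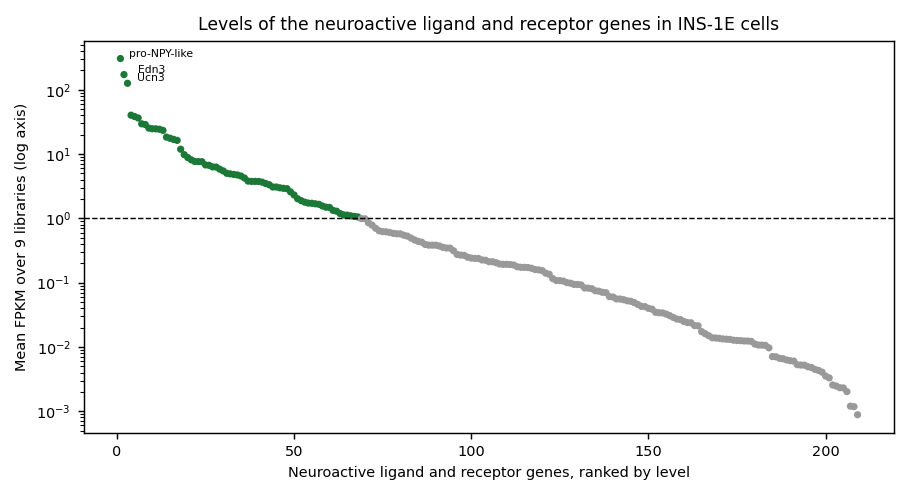
Mean level of each of the 209 neuroactive ligand and receptor genes over the 9 libraries (FPKM, log axis), ranked from high to low. Green points are the 68 genes at or above the dashed line at 1 FPKM and grey points the 141 below it. The pro-neuropeptide Y-like gene (305 FPKM), Edn3 and Ucn3 stand clear above the rest.

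In the PA group versus the BSA group, 24 of the 68 compared members (35.3%) rose and 16 (23.5%) fell in edgeR's quasi-likelihood test with an adjusted p-value below 0.05, beside 25.8% and 25.2% of all 12958 genes. In the PA + C3G group relative to the PA group, 16 (23.5%) rose and 4 (5.88%) fell, beside 11.1% and 10.2% of all genes. In the PA + C3G group versus the BSA group, 22 (32.4%) rose and 7 (10.3%) fell, beside 19.0% and 17.9%. The split of the members between the PA + C3G and PA groups moved with the scaling, to 12 higher and 6 lower when each library was rescaled to the same FPKM sum, a scaling that moved all genes to 774 higher and 2554 lower.

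Median log2 fold changes of the members, given beside those of all genes, were 0.01 beside 0.00 for PA versus BSA, 0.06 beside 0.00 for PA + C3G versus PA and 0.14 beside 0.01 for PA + C3G versus BSA. The sizes of the changes were larger in the members than over all genes. The median absolute log2 fold change was 0.43 for members and 0.26 for all genes in PA versus BSA, 0.27 and 0.14 in PA + C3G versus PA, and 0.28 and 0.19 in PA + C3G versus BSA. Members were also measured less precisely, with a median standard error of 0.16 on the log2 scale beside 0.09 over all genes, and at lower levels. Where more than a 2-fold difference and an unadjusted p-value below 0.05 were both required, 14 members (20.6%) passed in PA versus BSA beside 7.56% of all genes, 3 (4.41%) in PA + C3G versus PA beside 1.13%, and 12 (17.6%) in PA + C3G versus BSA beside 4.63%. Grik1, Chrne, F2 and Chrm4 among the 14, and Chrne, Chrm4 and Tac4, the 3, had a mean under 1 FPKM in at least 1 group. These passed the filter on level through the groups where they were higher. The part of this selection in the shares was not tested.

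Each pair of these comparisons shares a group, so the calls of one are not independent of those of the others, and each member's values are given side by side.

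**Figure D2:**
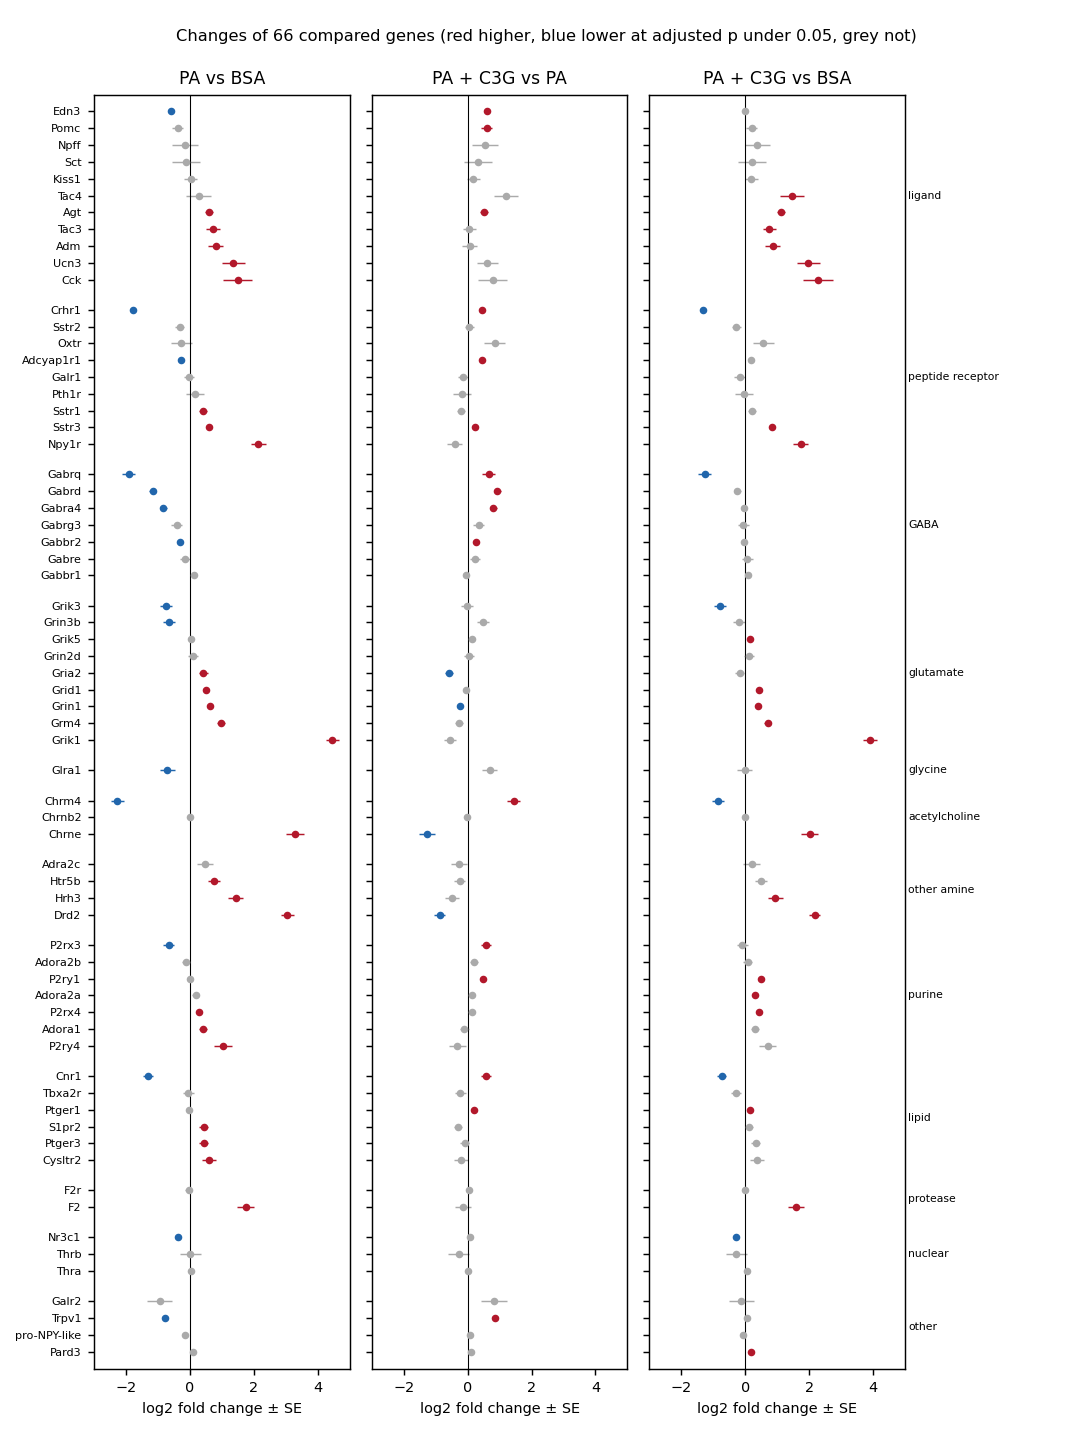
Log2 fold change of 66 of the 68 compared genes (points) with their standard errors (bars), by role, for PA versus BSA, PA + C3G versus PA and PA + C3G versus BSA, with genes ordered within a role by the first panel. Red points were higher and blue points lower at an edgeR adjusted p-value under 0.05, grey points did not pass; 24 genes are red and 15 blue in the first panel, 16 and 4 in the second, and 22 and 6 in the third.

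Among the 11 ligand and precursor genes compared, 5 rose with PA (Ucn3, Cck, Agt, Adm and Tac3), 1 fell (Edn3) and 5 did not pass. Among all genes 25.8% rose and 25.2% fell. Ucn3 (chr17:69960160-69966099 in the coordinates of the table, whose genome build is not given) encodes urocortin 3, a peptide of the corticotropin-releasing factor family that beta cells co-secrete with insulin. Ucn3 measured 33.6, 69.5 and 52.6 FPKM in the BSA libraries, 84.0, 187 and 120.1 in the PA libraries and 134, 252 and 201 in the PA + C3G libraries. All PA libraries and all PA + C3G libraries lay above all BSA libraries, whereas PA and PA + C3G overlapped. The log2 fold change was 1.36 ± 0.35, edgeR adjusted p = 0.00869 for PA versus BSA, and 1.98 ± 0.35, edgeR adjusted p = 0.00181 for PA + C3G versus BSA, a level 3.93 times that of BSA. Against PA alone it was 0.62 ± 0.34, edgeR adjusted p = 0.233 and did not pass. Within every group, replicate 2 was the highest and replicate 1 the lowest.

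The gene for cholecystokinin, Cck, a gut and brain peptide that also stimulates insulin release, measured 3.63, 2.00 and 2.52 FPKM in the BSA libraries, 10.7, 4.70 and 7.14 in the PA libraries and 21.2, 5.83 and 10.9 in the PA + C3G libraries. The groups were ordered as for Ucn3, with replicate 1 highest and replicate 2 lowest in each, and the PA + C3G libraries spread over the widest range. It differed by a log2 fold change of 1.49 ± 0.46, edgeR adjusted p = 0.0224 for PA versus BSA, 0.79 ± 0.45, edgeR adjusted p = 0.254 for PA + C3G versus PA, and 2.27 ± 0.47, edgeR adjusted p = 0.00431 for PA + C3G versus BSA. The call against BSA in the PA group was lost without BSA replicate 2, BSA replicate 3 or PA replicate 1, with adjusted p-values of 0.0763, 0.0692 and 0.0845 by edgeR, within a range of 0.000431 to 0.0845 over all alternatives. Ucn3 and Cck were 2 of 7 members in which the same replicate number was highest and the same number lowest in every group. The others were Adcyap1r1, Grik3, Grin3b, Oxtr and Sstr2, and all 7 were picked out after their values were seen.

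Agt, the gene for angiotensinogen, the precursor of the angiotensins, measured 4.02, 4.43 and 3.95 FPKM in the BSA libraries, 6.76, 5.00 and 6.61 in the PA libraries and 8.78, 8.09 and 8.83 in the PA + C3G libraries. No groups overlapped, and the order was BSA, PA, PA + C3G. On the log2 scale the change was 0.59 ± 0.12, edgeR adjusted p = 0.00279 for PA versus BSA, and 0.52 ± 0.12, edgeR adjusted p = 0.0150 for PA + C3G versus PA.

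Edn3 ran the opposite way. It encodes endothelin 3, a vasoactive peptide, and was the second most abundant member with 202, 200.1 and 193 FPKM in the BSA libraries, 141, 123 and 119 in the PA libraries and 199, 183 and 188 in the PA + C3G libraries. All PA libraries lay below all others, and the BSA and PA + C3G libraries overlapped. Edn3 fell with PA (log2 fold change −0.61 ± 0.06, edgeR adjusted p = 2.96e-05) and was higher with C3G than with PA alone (0.61 ± 0.06, edgeR adjusted p = 0.000314). Its log2 difference between PA + C3G and BSA was 0.00 ± 0.06.

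The tachykinin precursor gene Tac4 measured 0.853, 0.336 and 0.763 FPKM in the BSA libraries, 0.860, 0.581 and 0.888 in the PA libraries and 2.36, 1.15 and 1.68 in the PA + C3G libraries. Its means were 0.651 FPKM in BSA, 0.777 in PA and 1.73 in PA + C3G, so it passed the filter only through the PA + C3G group. The filter and the comparisons of that group thus rest on the same values. The PA + C3G libraries lay above all others, while BSA and PA overlapped. As a log2 fold change this was 1.46 ± 0.38, edgeR adjusted p = 0.0141 for PA + C3G versus BSA, and 1.19 ± 0.38, edgeR adjusted p = 0.0516 for PA + C3G versus PA, which did not pass. The call against BSA was lost without PA + C3G replicate 1, with a log2 fold change of 1.16 and an edgeR adjusted p of 0.0551, the highest of its alternatives, which began at 0.0018.

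Among the remaining ligands, Adm, which encodes the vasodilator peptide adrenomedullin, rose with PA (log2 fold change 0.80 ± 0.23), as did Tac3, the neurokinin B precursor (0.71 ± 0.22, edgeR adjusted p = 0.0207). The Tac3 call was lost without BSA replicate 2, BSA replicate 3 or PA replicate 3 (edgeR adjusted p 0.0547 to 0.0736), by DESeq2 and with no filter on level, and its adjusted p ranged from 0.0172 to 0.0736 over all alternatives. Tac3 shares 6607 bases on the same strand with LOC100365958, which changed by 0.65 on the log2 scale, so reads of these genes may have been split between them. Pomc, the precursor of the melanocortins and beta-endorphin, was higher in the PA + C3G group than in the PA group (0.60 ± 0.17, edgeR adjusted p = 0.0333) with −0.39 ± 0.17 for PA versus BSA, which did not pass. The first difference was no longer called without PA replicate 1, PA replicate 3 or any PA + C3G replicate (edgeR adjusted p 0.0542 to 0.112), nor with no filter, within a range of 0.00756 to 0.112. Sct (secretin), Kiss1 and Npff passed in no comparison. The most abundant member was LOC100912228 (chr4:79557854-79565097), listed as pro-neuropeptide Y-like and not counted among the 11 ligand and precursor genes. It had 317, 351 and 315 FPKM in the BSA libraries, 279, 303 and 292 in the PA libraries and 279, 307 and 307 in the PA + C3G libraries. The PA libraries lay below the BSA libraries by a log2 fold change of −0.14 ± 0.06, edgeR adjusted p = 0.0619, which did not pass. It lies beside the neuropeptide Y gene Npy (chr4:79573998-79581208), which had a mean of 349 FPKM and a like order of the libraries. The sequences of these genes were not compared, so the assignment of reads between them is uncertain.

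**Figure D3:**
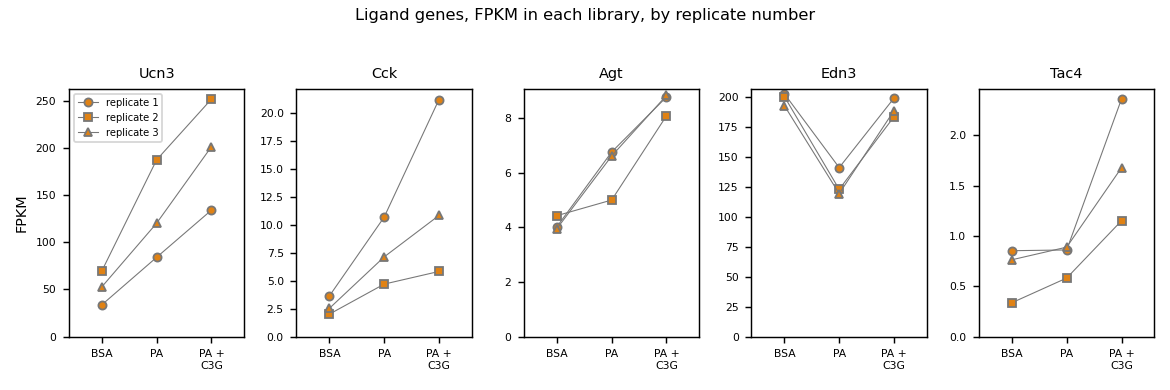
FPKM of 5 ligand genes in each of the 9 libraries, with the groups on the x axis and lines joining libraries that share a replicate number (circle 1, square 2, triangle 3). The means of Ucn3, Cck and Agt are lowest in BSA and highest in PA + C3G, Edn3 dips in all 3 PA libraries, and Tac4 is highest with C3G; in Ucn3 and Cck the replicate numbers keep their order in every group.

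Of 9 peptide receptors compared, 3 rose with PA (Npy1r, Sstr3 and Sstr1), 2 fell (Crhr1 and Adcyap1r1) and 4 did not pass. In that comparison 25.8% of all genes rose and 25.2% fell. Crhr1 (chr10:92191718-92232645) encodes the type 1 receptor of corticotropin-releasing hormone, which couples to cyclic AMP production and promotes insulin release. Crhr1 measured 47.7, 44.4 and 44.7 FPKM in the BSA libraries, 12.2, 13.2 and 13.7 in the PA libraries and 18.0, 17.4 and 16.6 in the PA + C3G libraries. The 3 groups did not overlap, with BSA highest and PA lowest. Crhr1 was 3.44 times lower in the PA group than in the BSA group (log2 fold change −1.78 ± 0.07, edgeR adjusted p = 5.76e-08), the smallest p-value of any compared member there. In the PA + C3G group Crhr1 was higher than in the PA group (0.45 ± 0.07, edgeR adjusted p = 0.00179) and lower than in the BSA group (−1.33 ± 0.07, edgeR adjusted p = 6.22e-07).

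The Npy1r gene, for the Y1 receptor of neuropeptide Y, measured 1.43, 0.969 and 1.46 FPKM in the BSA libraries, 6.69, 4.46 and 5.58 in the PA libraries and 5.20, 3.04 and 4.06 in the PA + C3G libraries. Both PA-treated groups lay above BSA and overlapped each other. In the fit the log2 fold change came to 2.14 ± 0.24, edgeR adjusted p = 5.60e-05 for PA versus BSA, and −0.41 ± 0.23, edgeR adjusted p = 0.249 for PA + C3G versus PA. Sstr3 encodes a somatostatin receptor that inhibits secretion, and measured 24.3, 27.2 and 25.9 FPKM in the BSA libraries, 38.0, 38.7 and 39.2 in the PA libraries and 41.1, 47.7 and 45.1 in the PA + C3G libraries. The groups did not overlap, in the order BSA, PA, PA + C3G. Sstr3 rose with PA (0.61 ± 0.06, edgeR adjusted p = 2.13e-05) and was higher again with C3G (0.24 ± 0.06, edgeR adjusted p = 0.0168), a call that was lost when PA replicate 1, PA replicate 3, PA + C3G replicate 2 or PA + C3G replicate 3 was left out (adjusted p-values of 0.0502 to 0.0574 by edgeR) and when libraries were rescaled to the same FPKM sum. Over all alternatives that adjusted p ranged from 0.000968 to 0.0872.

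Adcyap1r1, the PAC1 receptor of PACAP, a peptide that potentiates glucose-stimulated insulin release, was lower with PA (−0.27 ± 0.08) and higher in the PA + C3G group than in the PA group (0.46 ± 0.08, edgeR adjusted p = 0.00294). Sstr1 rose with PA (0.41 ± 0.12, edgeR adjusted p = 0.0178), a call lost without BSA replicate 2, BSA replicate 3, PA replicate 1 or PA replicate 3 (edgeR adjusted p 0.0563 to 0.0640, range 0.00362 to 0.0640 over all alternatives). Sstr2, Galr1, Pth1r and Oxtr, the oxytocin receptor gene, passed in no comparison. For Oxtr the log2 difference between PA + C3G and PA was 0.85 ± 0.32. LOC103690156, described in the table as galanin receptor 2, measured 4.78, 10.6 and 9.84 FPKM in the BSA libraries, 5.63, 3.21 and 3.98 in the PA libraries and 11.8, 5.25 and 5.01 in the PA + C3G libraries, with overlapping groups, and its span overlaps 71916 bases of Srp68 and 19081 bases of LOC100911734 on the opposite strand.

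Promoter sequences are shown for 3 members, the ligand Ucn3 and the receptors Crhr1 and Drd2, because these moved by more than 2-fold with PA and differ in direction. Each line gives the 250 bases before the annotated start, 5′ to 3′ on the gene's strand, from RefSeq on assembly GRCr8, whose coordinates cannot be set beside those of the table. Capitals mark the core TGACG of the cyclic AMP response element (CRE), the site bound by CREB.
Ucn3 (chr17:71219406-71219655, plus strand): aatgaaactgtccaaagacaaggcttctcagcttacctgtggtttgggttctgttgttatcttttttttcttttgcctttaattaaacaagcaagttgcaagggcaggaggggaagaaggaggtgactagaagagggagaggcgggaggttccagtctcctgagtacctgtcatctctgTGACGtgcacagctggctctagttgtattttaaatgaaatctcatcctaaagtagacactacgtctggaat
Crhr1 (chr10:89539959-89540208, plus strand, the first of its listed starts): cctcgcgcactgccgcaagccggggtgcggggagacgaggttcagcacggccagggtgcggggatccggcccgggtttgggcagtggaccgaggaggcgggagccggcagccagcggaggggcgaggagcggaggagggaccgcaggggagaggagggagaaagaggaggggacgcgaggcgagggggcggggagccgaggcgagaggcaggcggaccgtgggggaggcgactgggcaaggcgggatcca
Drd2 (chr8:58605153-58605402, plus strand): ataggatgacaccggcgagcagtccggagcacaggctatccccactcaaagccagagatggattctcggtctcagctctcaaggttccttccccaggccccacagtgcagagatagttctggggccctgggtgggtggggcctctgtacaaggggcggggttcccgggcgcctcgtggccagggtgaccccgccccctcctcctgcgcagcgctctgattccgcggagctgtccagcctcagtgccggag
The Ucn3 window had a G + C content of 44%, the Crhr1 window 75.2% and the Drd2 window 66%. Ucn3 held the core at position −71 from the start, and the other windows held none of the motifs searched on either strand, which were TGACG, the full CRE TGACGTCA (which contains the core), CCAAT and TATAAA. Of 68 compared members, 51 had a promoter in the RefSeq set, with 55 windows over all listed starts. TGACG was present in 12 of the 55 (21.8%) and in 18.2% of 33469 promoters of the same length, CCAAT in 17 (30.9%) and 34.0%, the full CRE in 1 (Sstr2) and 1.59%, and TATAAA in 1 (Pomc) and 12.9%. A match describes the letters of the window and not a bound site.

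Of 9 GABA receptor genes compared, 5 fell with PA, among them Gabrq, Gabrd, Gabra4 and Gabbr2, and 4 did not pass. These calls held under each scaling tried. With PA, 25.2% of all genes fell and 25.8% rose. GABA, which beta cells make from glutamate and release, acts on GABA-A receptors, chloride channels built from the Gabr subunits, and on GABA-B receptors, which signal through inhibitory G proteins. Gabrd, for the delta subunit of extrasynaptic GABA-A receptors, measured 21.5, 20.7 and 23.3 FPKM in the BSA libraries, 10.1, 10.6 and 7.76 in the PA libraries and 16.6, 18.3 and 17.9 in the PA + C3G libraries. All PA libraries lay below all others, and the PA + C3G libraries lay between the PA and BSA ranges. The log2 fold change was −1.18 ± 0.11, edgeR adjusted p = 2.02e-05 for PA versus BSA, and 0.93 ± 0.11, edgeR adjusted p = 0.000710 for PA + C3G versus PA. The remaining log2 difference from BSA, −0.25 ± 0.11, did not pass (edgeR adjusted p = 0.111).

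Gabra4, for the alpha 4 subunit that often joins delta, measured 10.9, 8.60 and 9.82 FPKM in the BSA libraries, 5.43, 5.28 and 5.46 in the PA libraries and 10.4, 8.26 and 8.87 in the PA + C3G libraries. The PA libraries were lowest and the other groups overlapped. Gabra4 fell with PA (−0.84 ± 0.10, edgeR adjusted p = 9.50e-05) and was higher in the PA + C3G group than in the PA group (0.80 ± 0.10, edgeR adjusted p = 0.000860). Gabrq, for the theta subunit, measured 7.15, 5.75 and 7.50 FPKM in the BSA libraries, 1.46, 2.37 and 1.44 in the PA libraries and 2.56, 2.92 and 2.63 in the PA + C3G libraries. No library of one group reached another group, and PA + C3G lay nearer to PA than to BSA. It differed by a log2 fold change of −1.92 ± 0.21, edgeR adjusted p = 4.56e-05 for PA versus BSA, and 0.65 ± 0.21, edgeR adjusted p = 0.0495 for PA + C3G versus PA. The latter call stands at the threshold. It was lost when any single library other than PA replicate 2 was left out, with edgeR adjusted p-values from 0.0512 to 0.157, and its range over all alternatives was 0.00589 to 0.157. Rescaling to the same FPKM sum, no filter, only the compared groups, a replicate block, counts divided by 4 and limma also ended it.

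The GABA-B subunit gene Gabbr2 fell with PA (−0.31 ± 0.06) and was higher with C3G than with PA alone (0.26 ± 0.06). Gabbr1, Gabrg3 and Gabre did not pass in any comparison.

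Of 9 glutamate receptor genes compared, 5 rose with PA (Grik1, Grm4, Grin1, Grid1 and Gria2), 2 fell (Grik3 and Grin3b) and 2 did not pass, in a comparison where 25.8% of all genes rose and 25.2% fell. The Grin3b call was lost without BSA replicate 1 (edgeR adjusted p = 0.0558, range 0.00318 to 0.0558). The whole Grin3b span of 6318 bases overlaps Palm on the opposite strand, at a mean of 37.9 FPKM beside 1.29 for Grin3b. Palm changed by −0.49 with PA, and the strand setting of the counting is not given, so their reads cannot be told apart. In the PA + C3G group relative to the PA group 2 of the 9 fell (Gria2 and Grin1) and 7 did not pass. Of all genes 10.2% fell there. Grik1 encodes a kainate receptor subunit and measured 0.131, 0.128 and 0.113 FPKM in the BSA libraries, 2.67, 2.99 and 2.50 in the PA libraries and 2.12, 1.35 and 1.98 in the PA + C3G libraries. The BSA libraries were near 0 and every PA or PA + C3G library was far above them, with PA above PA + C3G without overlap. The fitted fold in the PA group was 21.9 (log2 fold change 4.45 ± 0.22, edgeR adjusted p = 2.38e-07). On the log2(FPKM + 1) scale of limma it was 1.73, since that scale compresses low genes. Between PA + C3G and PA the log2 fold change was −0.54 ± 0.18, edgeR adjusted p = 0.0625, which did not pass, with a range of 0.0269 to 0.169 over the alternatives.

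The Grin1 gene, for the obligatory NMDA receptor subunit, measured 3.85, 3.55 and 3.42 FPKM in the BSA libraries, 5.64, 5.12 and 5.74 in the PA libraries and 4.59, 4.45 and 4.61 in the PA + C3G libraries. The 3 groups were separate, with PA highest and BSA lowest. Grin1 rose with PA (0.63 ± 0.07, edgeR adjusted p = 5.98e-05) and was lower with C3G (−0.23 ± 0.07, edgeR adjusted p = 0.0440), but the latter call was lost without BSA replicate 2, BSA replicate 3, PA replicate 1, PA replicate 3 or any PA + C3G replicate, with edgeR adjusted p-values from 0.0536 to 0.142 and a range of 0.0122 to 0.142 over all alternatives. No filter, only the compared groups, a replicate block and limma on log2(FPKM + 0.1) ended that call as well. Gria2, for the AMPA receptor subunit that limits calcium entry, measured 2.57, 2.81 and 2.95 FPKM in the BSA libraries, 3.45, 3.77 and 3.70 in the PA libraries and 1.87, 2.87 and 2.37 in the PA + C3G libraries. The PA libraries lay above the others, which overlapped. On the log2 scale the change was 0.41 ± 0.14, edgeR adjusted p = 0.0294 for PA versus BSA, and −0.58 ± 0.14, edgeR adjusted p = 0.0158 for PA + C3G versus PA. The first call was lost without BSA replicate 1, BSA replicate 2, PA replicate 2 or PA replicate 3 (adjusted p 0.0647 to 0.102 by edgeR, range 0.00366 to 0.102 over all alternatives), and also by limma. The other was lost without PA replicate 3 (0.0513, range 0.000105 to 0.0513).

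Grik5, a kainate subunit that needs a partner such as Grik1 to form channels, was the most abundant glutamate receptor gene and measured 37.1, 38.5 and 37.1 FPKM in the BSA libraries, 36.7, 38.1 and 37.8 in the PA libraries and 40.7, 41.2 and 37.5 in the PA + C3G libraries. All groups overlapped. Its log2 fold change for PA + C3G versus BSA was 0.14 ± 0.04, edgeR adjusted p = 0.0296, a call lost without BSA replicate 1, BSA replicate 3, PA + C3G replicate 1 or PA + C3G replicate 2 (edgeR adjusted p 0.0999 to 0.114, range 0.0112 to 0.187 over all alternatives). The same call was also lost by limma, with only the compared groups and with libraries rescaled to the same FPKM sum. The kainate subunit gene Grik3 was lower than in BSA in both PA-treated groups (−0.75 ± 0.19 and −0.78 ± 0.19). Grm4, a metabotropic receptor gene, rose with PA (0.97 ± 0.12). All 45838 bases of its span lie within that of Ppil1 on the same strand, which changed by −0.49, so reads may have been split between them. Glra1, a glycine receptor channel gene, fell with PA (−0.71 ± 0.23, edgeR adjusted p = 0.0263), as the only glycine receptor compared. That call was lost without BSA replicate 1, PA replicate 1 or PA replicate 3 (edgeR adjusted p 0.0811 to 0.0869, range 0.00635 to 0.0869 over all alternatives).

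Of 3 acetylcholine receptor genes compared, 1 rose with PA, 1 fell and 1 did not pass (25.8% of all genes rose, 25.2% fell). Chrm4 encodes a muscarinic receptor that lowers cyclic AMP and measured 2.42, 1.83 and 1.902 FPKM in the BSA libraries, 0.383, 0.455 and 0.397 in the PA libraries and 1.20, 1.20 and 0.874 in the PA + C3G libraries. The groups did not overlap, with BSA highest and PA lowest. Chrm4 was 4.85 times lower with PA than with BSA (−2.28 ± 0.20, edgeR adjusted p = 9.16e-06) and 2.71 times higher with C3G than with PA alone (1.44 ± 0.19, edgeR adjusted p = 0.00113). It also remained under BSA in the PA + C3G group (−0.84 ± 0.19, edgeR adjusted p = 0.00614).

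Chrne, for the epsilon subunit of the muscle nicotinic receptor, ran the opposite way with 0.380, 0.224 and 0.298 FPKM in the BSA libraries, 2.67, 2.77 and 3.37 in the PA libraries and 0.904, 1.09 and 1.57 in the PA + C3G libraries. No library of one group reached another group, with PA highest and BSA lowest. As a log2 fold change this was 3.29 ± 0.28, edgeR adjusted p = 7.52e-06 for PA versus BSA, and −1.27 ± 0.25, edgeR adjusted p = 0.00747 for PA + C3G versus PA. Chrne overlaps LOC687707 on the opposite strand by 955 bases, and that gene changed by 4.002 and −1.42 in the same comparisons. The libraries were made to mark strand, but the strand setting of the counting is not given in the sources used here, so reads of these genes cannot be told apart. Chrnb2, a neuronal nicotinic subunit gene, was the most abundant of the 3 and differed by −0.01 ± 0.06 on the log2 scale between PA and BSA.

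Of the other 4 amine receptor genes compared, 3 rose with PA (Drd2, Hrh3 and Htr5b) and 1 did not pass. The share of all genes that rose was 25.8%. Drd2 (chr8:53678777-53743642) encodes the dopamine D2 receptor, which couples to inhibitory G proteins and restrains insulin release in beta cells. Drd2 measured 1.06, 0.746 and 1.35 FPKM in the BSA libraries, 8.59, 7.92 and 9.23 in the PA libraries and 4.67, 4.75 and 4.22 in the PA + C3G libraries. The 3 groups were separate, and every PA + C3G library lay between the BSA and PA ranges. Drd2 was 8.26 times higher with PA than with BSA (3.05 ± 0.19, edgeR adjusted p = 1.12e-06), 1.84 times lower with C3G than with PA alone (−0.88 ± 0.18, edgeR adjusted p = 0.00781), and still 4.49 times the BSA level in the PA + C3G group (2.17 ± 0.19, edgeR adjusted p = 1.69e-05).

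Hrh3, for the histamine H3 receptor, which also couples to inhibitory G proteins, measured 1.12, 1.33 and 0.859 FPKM in the BSA libraries, 2.76, 2.45 and 3.54 in the PA libraries and 2.10, 2.47 and 1.53 in the PA + C3G libraries. Both PA-treated groups lay above BSA and overlapped each other. In the fit the log2 fold change came to 1.42 ± 0.23, edgeR adjusted p = 0.000589 for PA versus BSA, and −0.48 ± 0.22, edgeR adjusted p = 0.164 for PA + C3G versus PA. Htr5b, a serotonin receptor gene, rose with PA by 0.75 ± 0.17. For Adra2c, an alpha 2 adrenergic receptor gene, the log2 difference was 0.47 ± 0.26 and did not pass.

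**Figure D4:**
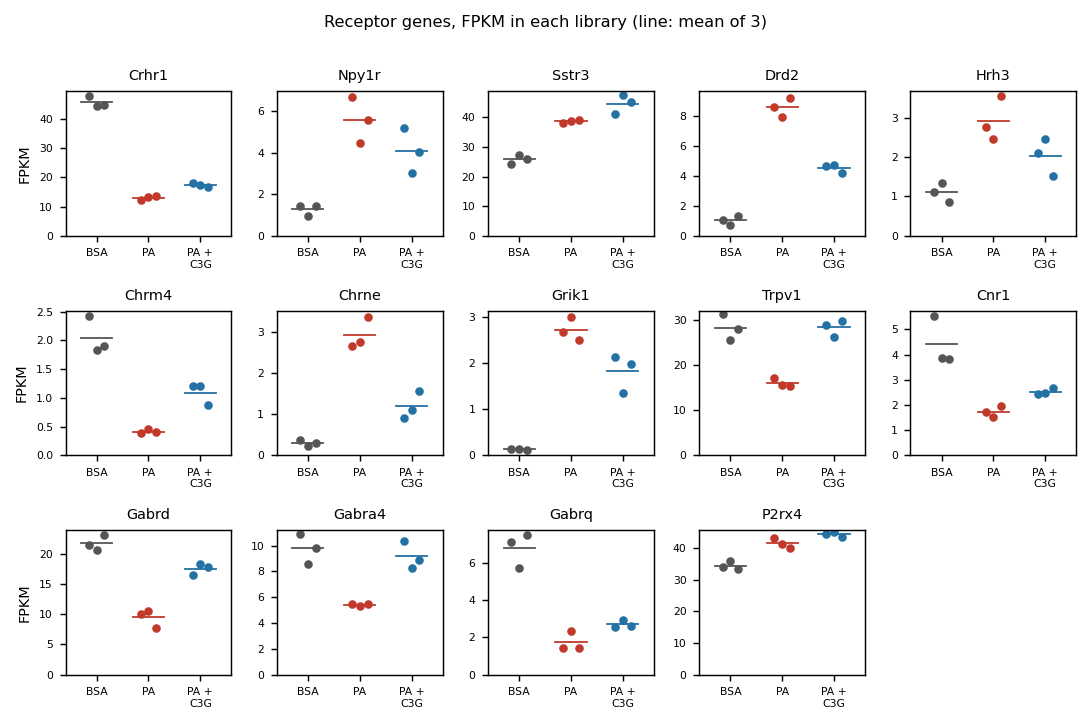
FPKM of 14 receptor genes in each of the 9 libraries (points, replicates 1 to 3 from left to right within a group), with the mean of the 3 libraries as a line and each y axis starting at 0. Crhr1, Chrm4, Cnr1, Trpv1, Gabrd, Gabra4 and Gabrq are lower in all PA libraries than in all BSA libraries, and Npy1r, Sstr3, Drd2, Hrh3, Chrne, Grik1 and P2rx4 are higher.

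Of 7 purine receptor genes, 3 rose with PA (P2rx4, Adora1 and P2ry4), 1 fell (P2rx3) and 3 did not pass. For all genes the shares were 25.8% higher and 25.2% lower. P2rx4 encodes an ATP-gated cation channel and was the most abundant receptor gene among the members, with 34.0, 36.1 and 33.5 FPKM in the BSA libraries, 43.1, 41.4 and 40.0 in the PA libraries and 44.6, 45.3 and 43.6 in the PA + C3G libraries. The groups did not overlap. P2rx4 rose with PA (0.29 ± 0.05, edgeR adjusted p = 0.000483), and with PA + C3G versus BSA the log2 fold change was 0.43 ± 0.05, edgeR adjusted p = 6.75e-05. Between PA + C3G and PA it was 0.14 ± 0.05, edgeR adjusted p = 0.0618 and did not pass. P2ry1, the ADP receptor gene, had log2 fold changes of −0.01 ± 0.09 for PA versus BSA, which did not pass, 0.49 ± 0.09, edgeR adjusted p = 0.00438 for PA + C3G versus PA, and 0.48 ± 0.09, edgeR adjusted p = 0.00200 for PA + C3G versus BSA. P2rx3, an ATP-gated channel gene of sensory neurons, fell with PA (−0.66 ± 0.17) and was higher with C3G (0.58 ± 0.17), the latter lost without BSA replicate 2, PA replicate 2, PA replicate 3, PA + C3G replicate 1 or PA + C3G replicate 2 (edgeR adjusted p up to 0.131), and also by limma, with no filter, with a replicate block and with libraries rescaled to the same FPKM sum (range 0.0140 to 0.158). The Adora1 call for PA versus BSA was lost without BSA replicate 2, BSA replicate 3, PA replicate 1 or PA replicate 3 (edgeR adjusted p 0.0736 to 0.113, range 0.00319 to 0.113).

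Of 6 lipid mediator receptor genes, 3 rose with PA (Ptger3, Cysltr2 and S1pr2) and 1 fell, beside 25.8% and 25.2% of all genes. Each of the 3 rises was lost when 1 library was left out. Cysltr2 was lost without any BSA replicate, PA replicate 1, PA replicate 2 or PA + C3G replicate 2 (edgeR adjusted p 0.0598 to 0.167, range 0.0265 to 0.167 over all alternatives), and also with no filter and with only the compared groups. Ptger3 was lost without BSA replicate 2 or PA replicate 1 (edgeR adjusted p 0.0569 and 0.0850, range 0.00547 to 0.0850) and S1pr2 without BSA replicate 3 or PA replicate 3 (0.0816 and 0.0571, range 0.0136 to 0.0816). The one that fell was Cnr1, for the cannabinoid CB1 receptor, which measured 5.55, 3.86 and 3.83 FPKM in the BSA libraries, 1.73, 1.52 and 1.95 in the PA libraries and 2.45, 2.47 and 2.67 in the PA + C3G libraries. No library of one group reached another group, with BSA highest and PA lowest. Cnr1 fell with PA (−1.32 ± 0.15, edgeR adjusted p = 6.49e-05) and was higher with C3G than with PA alone (0.58 ± 0.15, edgeR adjusted p = 0.0234), a call lost without PA replicate 1, PA replicate 2, PA + C3G replicate 1 or PA + C3G replicate 3 (edgeR adjusted p 0.0519 to 0.0789, range 0.000886 to 0.0789 over all alternatives), and also by limma. Ptger3, for the EP3 receptor of prostaglandin E2, which lowers cyclic AMP, rose with PA by 0.43 ± 0.14. Ptger1, for the EP1 receptor, had −0.05 ± 0.04 for PA versus BSA and was higher in the PA + C3G group than in the PA group (0.18 ± 0.04), except when libraries were rescaled to the same FPKM sum.

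Trpv1, the capsaicin-gated cation channel of pain neurons, measured 31.4, 25.6 and 28.0 FPKM in the BSA libraries, 17.2, 15.6 and 15.4 in the PA libraries and 29.0, 26.4 and 29.9 in the PA + C3G libraries. The PA libraries lay below all others, and the other groups overlapped. Trpv1 fell with PA (−0.79 ± 0.08, edgeR adjusted p = 2.63e-05) and was 1.81 times higher with C3G than with PA alone (0.86 ± 0.08, edgeR adjusted p = 0.000210). Its log2 difference between PA + C3G and BSA was 0.07 ± 0.08.

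Nr3c1, the glucocorticoid receptor gene, measured 30.4, 27.6 and 29.3 FPKM in the BSA libraries, 24.0, 21.1 and 21.5 in the PA libraries and 22.8, 21.9 and 23.2 in the PA + C3G libraries. Both PA-treated groups lay below BSA and overlapped each other. The log2 fold change was −0.36 ± 0.06, edgeR adjusted p = 0.000474 for PA, and −0.30 ± 0.06, edgeR adjusted p = 0.00241 for PA + C3G versus BSA. The thyroid hormone receptor genes Thra and Thrb passed in no comparison. Thrb measured 2.76, 8.62 and 8.22 FPKM in the PA + C3G libraries, replicate 1 being far below the others, and 8.08, 9.08 and 7.64 in the BSA libraries. F2, for prothrombin, whose product thrombin activates the receptor encoded by F2r, measured 1.34, 0.622 and 0.936 FPKM in the BSA libraries, 2.95, 3.19 and 3.41 in the PA libraries and 3.35, 2.57 and 2.40 in the PA + C3G libraries. Both PA-treated groups lay above BSA and overlapped each other, with log2 fold changes of 1.74 ± 0.26, edgeR adjusted p = 0.000353 for PA and 1.58 ± 0.26, edgeR adjusted p = 0.00106 for PA + C3G versus BSA. F2r itself differed by −0.05 ± 0.10 between PA and BSA. Pard3, a cell polarity gene that carries the annotation, was higher in PA + C3G than in BSA (0.18 ± 0.06, edgeR adjusted p = 0.0355). This call was lost without BSA replicate 2, BSA replicate 3, PA replicate 1 or any PA + C3G replicate (edgeR adjusted p 0.0576 to 0.158), with libraries rescaled to the same FPKM sum, with no filter and by limma, with a range of 0.0215 to 0.230.

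Of the calls among the 68 members, 30 of 40 for PA versus BSA, 13 of 20 for PA + C3G versus PA and 22 of 29 for PA + C3G versus BSA passed in every fit that left out 1 library. The same share was not counted over all called genes, so these counts stand without a background. With no filter on level, 9 of the 141 remaining members rose and 9 fell in PA versus BSA, 3 rose and 1 fell in PA + C3G versus PA, and 3 rose and 3 fell in PA + C3G versus BSA. In the same fit, the shares higher and lower were 16.2% and 16.1%, 6.22% and 5.62%, and 11.3% and 10.5% of all 20645 genes, and 2.78% and 3.54%, 0.689% and 0.624%, and 1.37% and 1.77% of the 7687 genes with a mean under 1 FPKM. Edn1, Grm2 and Chrna7, chosen after their values were seen for the smallest p-values there, are given as examples. Edn1, for endothelin 1, measured 1.36, 0.733 and 1.10 FPKM in the BSA libraries, 0.0869, 0 and 0.0872 in the PA libraries and 0.667, 1.16 and 0.569 in the PA + C3G libraries, and PA lay below both other groups. Grm2, for a metabotropic glutamate receptor, measured 1.86, 1.76 and 1.64 FPKM in the BSA libraries, 0.644, 0.200 and 0.574 in the PA libraries and 0.850, 0.664 and 0.662 in the PA + C3G libraries, with BSA above both other groups. Chrna7, for the alpha 7 nicotinic receptor, measured 0.356, 0.449 and 0.432 FPKM in the BSA libraries, 0.797, 0.864 and 1.18 in the PA libraries and 0.373, 0.325 and 0.404 in the PA + C3G libraries, with PA above both other groups.

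Genes that make, carry and remove transmitters were followed as a separate list, of which 38 of 65 were compared. In PA versus BSA 12 rose and 13 fell, in PA + C3G versus PA 10 rose and 4 fell, and in PA + C3G versus BSA 11 rose and 9 fell, with median log2 fold changes of −0.06, 0.08 and 0.06. Over all 12958 genes the shares higher and lower were 25.8% and 25.2%, 11.1% and 10.2%, and 19.0% and 17.9%. Slc6a17, a vesicular amino acid transporter gene, measured 23.5, 23.9 and 23.5 FPKM in the BSA libraries, 60.0, 58.9 and 60.9 in the PA libraries and 45.4, 46.0 and 45.2 in the PA + C3G libraries, and the groups did not overlap. Its log2 fold change was 1.37 ± 0.03, edgeR adjusted p = 5.46e-09 for PA versus BSA, and −0.36 ± 0.03, edgeR adjusted p = 0.000121 for PA + C3G versus PA. Maob, for monoamine oxidase B, which breaks down amines, measured 71.4, 81.7 and 71.9 FPKM in the BSA libraries, 22.8, 26.7 and 24.1 in the PA libraries and 34.8, 40.3 and 37.7 in the PA + C3G libraries, with BSA highest and PA lowest. Its log2 fold change was −1.59 ± 0.08, edgeR adjusted p = 3.09e-07 for PA versus BSA, and 0.65 ± 0.08, edgeR adjusted p = 0.000710 for PA + C3G versus PA. Among genes of the GABA and glutamate cycle, Abat, which breaks down GABA, fell with PA (−0.88), and Glul (glutamine synthetase) and Gls2 rose (0.89 and 1.06). With C3G versus PA alone, Gad2, which makes GABA, was 2.46 times higher and Abat 1.44 times higher, and Gls2 was 1.65 times lower. Gad1, which also makes GABA, had a mean of 33.3 FPKM beside 1.24 for Gad2. With PA Gad1 rose (0.51 ± 0.12, edgeR adjusted p = 0.00507) while Gad2 fell (−1.49 ± 0.20). Gad1 did not pass for PA + C3G versus PA (−0.16 ± 0.12, edgeR adjusted p = 0.393).

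Genes that carry receptor signals inside the cell formed another list, of G proteins, adenylyl cyclases, phospholipases and desensitising factors, of which 69 of 90 were compared. In PA versus BSA 14 rose and 25 fell, in PA + C3G versus PA 15 rose and 3 fell, and in PA + C3G versus BSA 12 rose and 14 fell, with median log2 fold changes of −0.03, 0.03 and −0.02. The shares of all 12958 genes higher and lower were 25.8% and 25.2%, 11.1% and 10.2%, and 19.0% and 17.9%. The calcium-stimulated adenylyl cyclase genes Adcy1 and Adcy8 rose with PA. Adcy8 measured 4.90, 5.51 and 4.69 FPKM in the BSA libraries, 9.68, 10.5 and 10.2 in the PA libraries and 5.35, 6.71 and 6.50 in the PA + C3G libraries. The PA libraries lay above all others, with a log2 fold change of 1.03 ± 0.09, edgeR adjusted p = 1.43e-05 for PA versus BSA, and −0.67 ± 0.09, edgeR adjusted p = 0.00141 for PA + C3G versus PA. For Adcy1 the log2 fold changes were 1.12 ± 0.11 and −0.58 ± 0.11. Rgs3, which shortens G protein signals, fell with PA (−1.21 ± 0.07, edgeR adjusted p = 7.30e-07), as did Prkar1a, a regulatory subunit gene of protein kinase A (−0.34 ± 0.03). Gnas, for the stimulatory G protein alpha subunit, is listed under overlapping identifiers, so its reads may be split, and the one with the smaller p-value was higher with C3G than with PA alone (0.71 ± 0.05).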

How the data were processed

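Polyadenylated RNA was sequenced by the authors in paired-end mode from strand-marked libraries, 3 per group. The submitters' processing notes name cutadapt 1.9, HISAT2 2.0.4, StringTie 1.3.4d, DESeq2 and edgeR, and the genome build is not given in the sources used here. The authors deposited 1 table with FPKM, scaled by gene length and mapped fragments, and estimated counts, which are whole numbers without normalization. The columns of the authors' own comparisons were not used.

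Estimated counts were compared with edgeR 4.0.16 in R 4.3.3 by TMM normalization and the quasi-likelihood test, with all 9 libraries in 1 fit, over the 12958 genes with a mean of at least 1 FPKM. The p-values were adjusted by the Benjamini-Hochberg method over all of them, and fold changes are on the log2 scale of the fit. Whether a comparison overlapped was read from FPKM. The total count per library, 45559993 to 66730721, sets the precision, which is lower if a fragment is worth 4 counts. The procedure was tested on simulated data.

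Members given in full were, per comparison, those past the threshold and over 2-fold (at most 12), the 5 with the smallest p-value in each direction, and the 5 of highest level. Others were named by role. The values of a few genes are not reported here, although the counts include them. From the supporting lists at most 4 genes per direction were taken by p-value, and Gad1 was given beside Gad2. The members and lists were chosen with earlier results of these data known. Alternatives were DESeq2 1.42.0, limma 3.58.1 on log2(FPKM + 1) and log2(FPKM + 0.1), median-ratio size factors, no filter, at least 5 FPKM, libraries rescaled to equal FPKM sums (TPM scaling), only the compared groups, a replicate block, counts divided by 4, and each library left out.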

Additional observations from a re-analysis of the deposited data

How the results depend on the processing

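No call of a compared member changed sign under any alternative run. A filter of at least 5 FPKM leaves 31 members among 9863 genes. PA versus BSA then gave 9 members higher and 9 lower, beside 2820 and 2799 of the 9863 genes. PA + C3G versus BSA gave 11 higher and 3 lower, beside 2107 and 2062 genes. PA + C3G versus PA gave 11 higher and 0 lower by edgeR, beside 1316 and 1264 genes. All 4 members reported as lower there have a mean under 5 FPKM. Among the 31, 1 was lower there at an unadjusted p-value below 0.05, and DESeq2 called 0. Leaving out 1 library at a time gave 1718 to 2838 genes called in PA + C3G versus PA, lowest without PA replicate 3, and 2 to 4 members lower there. Of the other counts, 164 stayed within 1.5 times the reported ones.

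The balance of directions moved with the scaling. For PA + C3G versus PA it was 1436 genes higher and 1316 lower, 774 and 2554 with TPM scaling, and 1065 and 1636 by limma on log2(FPKM + 1). For PA + C3G versus BSA it was 2462 and 2321, then 1872 and 3073, then 1850 and 3091. The median of the members in PA + C3G versus PA was −0.03 with TPM scaling, where that of all genes was −0.09. It was 0.18 with the filter of at least 5 FPKM and 0.14 without PA + C3G replicate 3, where those of all genes were −0.002.

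Same-numbered libraries had correlations of deviations of −0.07 to 0.15, which were not over 0.1 in every pair, so the numbers were not taken to pair them. As a hint from the data the other way, a library correlated best with its own number in another group in 12 of 18 cases, where a random pick would give 6. With the replicate block, 6843 genes were called in PA versus BSA (24 members higher, 19 lower), 3118 in PA + C3G versus PA (21 and 4) and 5058 in PA + C3G versus BSA (26 and 7). In PA + C3G versus PA the block added Cck, Glra1, Grin3b, Npy1r, Oxtr, P2rx4, Tac4 and Ucn3 and removed Gabrq, Grin1 and P2rx3.

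The median standard error of the members was 0.16 on the log2 scale beside 0.09 over all genes, and how it depends on depth was not tested.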
